A study of Mus musculus with 2 samples.

Results

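H4K12la, lysine 12 of histone H4 carrying a lactyl group, was read at the Zfp genes numbered 500 and above, mouse zinc finger genes that carry only a serial number as a name. Members were the protein-coding genes of the RefSeq table of GRCm38.p6 (mm10) whose symbol is Zfp followed by a number of 3 digits from 500 on, with or without a trailing letter, leaving out Zfp809. There were 216 members among 21887 protein-coding genes. They lay on 20 chromosomes, 55 of them on chromosome 7, 27 on chromosome 17 and 19 on chromosome 4. CUT&Tag, in which an antibody brings a DNA-cutting transposase to a chromatin mark, was done in Neuro2a, an established mouse neuroblastoma line grown in serum on collagen-coated plates. The control library came from cells given NaCl and the lactate library from cells given 25 mM lactate, with 1 library per treatment. The series title places the work in a study of Fam172a, histone lactylation and energy balance in POMC neurons, while the cells profiled here were of the 1 line.

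C2H2 zinc finger proteins bind DNA through repeated fingers, each of which reads a few bases. Many mouse Zfp genes code for KRAB zinc finger proteins, in which a KRAB domain near the start of the protein recruits the co-repressor Trim28 and, through it, the H3K9 methyltransferase Setdb1 and heterochromatin proteins. Many of these proteins bind and silence retroviral elements in the genome. The genes have spread by local duplication, so that they sit in clusters of close relatives, and the fingers are usually coded by 1 long exon at the far end of the gene. Other numbered Zfp genes have no KRAB domain and act as regulators of development or metabolism.

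A gene-end peak means a peak called by the authors with at least 1 bp within 1 kb of either annotated end of the gene. The lists held 46592 control and 39768 lactate peaks, called separately in each library, with a lowest summit of 11 reads in both. The genome-wide background corresponded to 2.96 and 3.06 reads, which is 3.43% higher in lactate. Depth was judged from this background alone and was not measured. Summit reads below are the number of reads piled up at a peak's highest point, solved from the deposited fold and −log10 p, with exact 95% Poisson intervals. With 1 library per treatment nothing was tested between treatments, and all intervals cover counting error only. Of 7 neuroblastoma and neuronal genes read to check the cell line label, Stmn2 had a gene-end peak in both libraries, Phox2a and Elavl4 in lactate alone and Hand2 in control alone, and Gata3, Th and Dbh had none. A peak list does not measure expression, so the label rests on the submitters.

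Promoters of 6 members show the range of sequences and calls among the members. They are the 250 bases before and 50 bases after the RefSeq start (GRCm38.p6), written 5′ to 3′ on the gene's own strand, with every CG in capitals. Zfp619 (chr7:39517516-39517815, plus strand) had the highest fold of any member's gene-end peak. Zfp729a (chr13:67637732-67638031, minus strand) had the most summit reads with only 5 CG. Zfp940 (chr7:29853599-29853898, minus strand) was called in lactate alone. Zfp942 (chr17:21962415-21962714, minus strand) shares its peak with Zfp943, which starts on the other strand at 21962559, inside the printed stretch. Zfp987 (chr4:146097062-146097361, plus strand) and Zfp600 (chr4:146156577-146156876, plus strand) are neighbours in the chromosome 4 cluster, and neither had a gene-end peak.
Zfp619: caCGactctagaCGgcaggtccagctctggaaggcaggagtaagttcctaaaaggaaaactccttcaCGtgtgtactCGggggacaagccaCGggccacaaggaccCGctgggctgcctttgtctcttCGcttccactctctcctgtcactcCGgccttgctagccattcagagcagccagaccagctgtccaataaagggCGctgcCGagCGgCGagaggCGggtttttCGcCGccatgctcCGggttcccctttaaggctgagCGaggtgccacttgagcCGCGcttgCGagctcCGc
Zfp729a: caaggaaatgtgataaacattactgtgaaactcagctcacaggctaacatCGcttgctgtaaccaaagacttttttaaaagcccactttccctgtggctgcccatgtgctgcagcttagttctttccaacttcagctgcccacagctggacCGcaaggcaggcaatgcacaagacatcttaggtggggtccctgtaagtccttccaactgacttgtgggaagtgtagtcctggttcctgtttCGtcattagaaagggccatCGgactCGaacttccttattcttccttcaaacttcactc
Zfp940: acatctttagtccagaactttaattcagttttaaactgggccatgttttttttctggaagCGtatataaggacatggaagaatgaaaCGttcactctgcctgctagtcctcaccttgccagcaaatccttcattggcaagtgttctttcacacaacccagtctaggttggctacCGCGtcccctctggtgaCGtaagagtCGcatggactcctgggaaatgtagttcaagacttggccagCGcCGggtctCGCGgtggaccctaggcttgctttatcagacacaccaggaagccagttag
Zfp942: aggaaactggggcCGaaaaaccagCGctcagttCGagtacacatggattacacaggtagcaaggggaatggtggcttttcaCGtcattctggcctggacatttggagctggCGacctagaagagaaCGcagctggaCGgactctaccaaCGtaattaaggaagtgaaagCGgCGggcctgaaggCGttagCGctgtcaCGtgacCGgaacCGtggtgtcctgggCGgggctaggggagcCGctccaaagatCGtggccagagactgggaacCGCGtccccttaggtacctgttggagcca
Zfp987: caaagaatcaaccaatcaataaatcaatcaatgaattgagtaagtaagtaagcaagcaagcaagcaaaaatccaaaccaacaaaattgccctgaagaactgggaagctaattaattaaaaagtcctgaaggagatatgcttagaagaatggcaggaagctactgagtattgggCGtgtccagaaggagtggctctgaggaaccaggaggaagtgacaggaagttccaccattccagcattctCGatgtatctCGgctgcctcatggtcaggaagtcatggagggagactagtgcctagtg
Zfp600: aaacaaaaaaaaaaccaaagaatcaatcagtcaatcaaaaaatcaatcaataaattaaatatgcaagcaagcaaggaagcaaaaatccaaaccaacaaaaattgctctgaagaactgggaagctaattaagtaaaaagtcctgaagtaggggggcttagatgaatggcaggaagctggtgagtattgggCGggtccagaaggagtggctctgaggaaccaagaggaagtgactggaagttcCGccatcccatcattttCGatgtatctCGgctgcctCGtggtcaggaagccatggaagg
The Zfp987 and Zfp600 promoters matched at 252 bases, an identity of 84.0%, with 3 and 5 CG. The Zfp619 and Zfp729a promoters, with 21 and 5 CG, matched at 52.3% when aligned end to end.

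Most members carried a gene-end H4K12la peak, and most of the peaks were in both libraries. In the control 120 of 216 members were called (55.6%, exact Clopper-Pearson interval 48.7 to 62.3), against 32.0% of all protein-coding genes. In lactate 151 were called (69.9%, 63.3 to 75.9), against 44.8%. Both libraries called 113 members (52.3%), against 28.6% of all genes. A further 38 members (17.6%, 12.8 to 23.3) were called in lactate alone, close to the 16.2% of all genes. Control alone called 7 members (3.24%), beside 3.34% of all genes. Neither library called 58 (26.9%), beside 51.9%. The members' shares differed from the background in any call and in calls by both libraries, while the shares called in 1 library alone lay near it at the authors' threshold. The Zfp genes numbered below 500, 177 in all, were similar at 59.3% in the control and 76.3% in lactate. Of the 27 Zkscan and Zscan genes, relatives in which the fingers come with a SCAN domain, 55.6% and 66.7% were called. The counting intervals of the 3 groups overlapped in both libraries, and the differences between them were not tested.

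**Figure D1:**
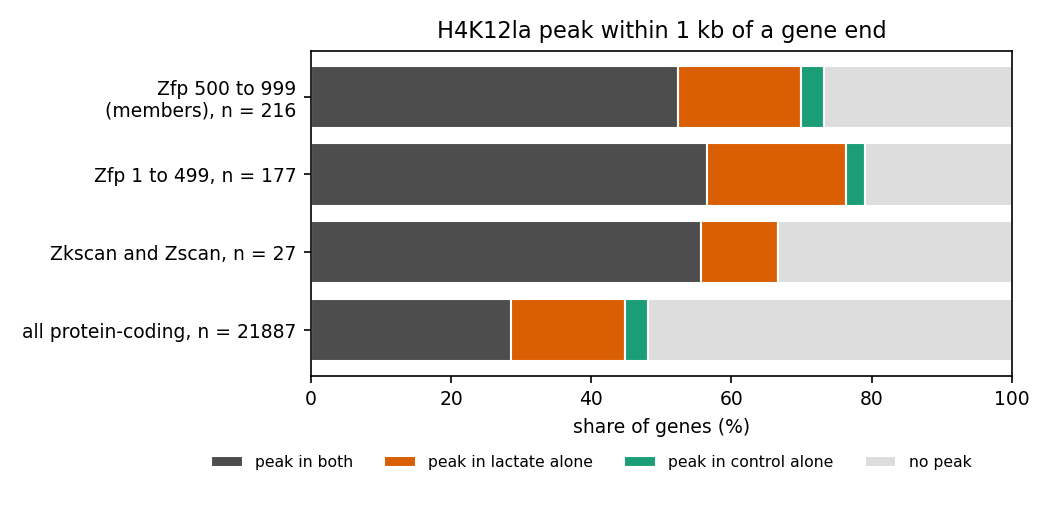
Share of genes (%) with an H4K12la peak within 1 kb of a gene end, split by the library or libraries that called it, for the 216 members, 2 related gene groups and all 21887 protein-coding genes. The dark part, called in both libraries, is 52.3% of the members and 28.6% of all genes, while the lactate-alone part is 17.6% and 16.2%.

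The calls were placed at the start of the genes. The promoter table gave a strand for 183 members. Within 1 kb of the annotated start, 101 of them (55.2%) had a control peak, beside 30.6% of the genes with a strand, and 131 (71.6%) had a lactate peak, beside 43.5%. At the far end, where the finger exon usually ends, 4 members (2.19%) had a control peak, beside 4.60%, and 5 (2.73%) a lactate peak, beside 5.53%. The far-end members were Zfp597, Zfp512b, Zfp771 and Zfp787 in the control, and Zfp597, Zfp512b, Zfp771, Zfp869 and Zfp879 in lactate. Counting every start that the table lists, also those inside the annotated gene, 114 members (62.3%) had a control peak within 1 kb of a start, beside 33.0%, and 145 (79.2%) a lactate peak, beside 46.7%. For 157 members a listed start lay within 1 kb of the annotated end. On their 300-base promoters themselves, 78 (49.7%) had a control peak, beside 24.7%, and 112 (71.3%) a lactate peak, beside 39.1%. The summit lay at a median of 103 bp inside the gene in the control, with quartiles at −25 and 313 bp, and at 105 bp in lactate, with quartiles at −19 and 261 bp. Over all genes the medians were 84 and 75 bp. Summits 0 to 500 bp inside the gene made up 60.4% and 63.4% of the members' start-side calls, and 51.0% and 49.3% of those of all genes.

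**Figure D2:**
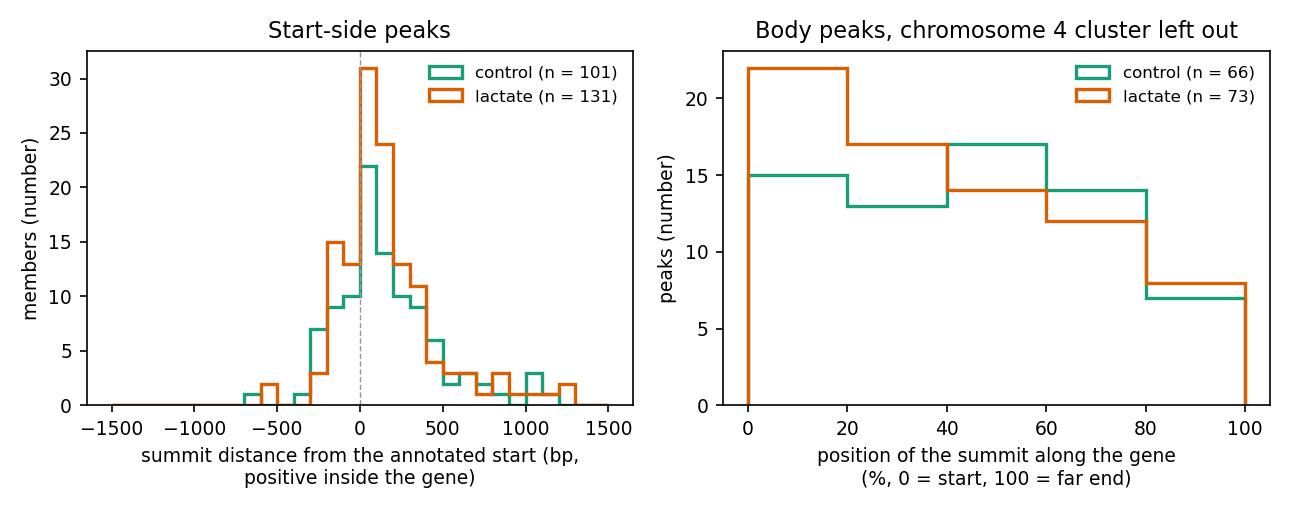
Left, number of members by distance (bp) of the best start-side summit from the annotated start, positive inside the gene, for 101 control and 131 lactate calls. Right, number of body peaks by position along the gene (%), without the chromosome 4 cluster. The start-side summits pile up just inside the gene, with medians of 103 and 105 bp, and the last 20% of the gene holds 7 control and 8 lactate peaks.

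Summit reads at the members were close to those of other genes, and folds were slightly higher. Among the 113 members called in both libraries, the control summits held from 11 to 49 reads with a median of 18, and the lactate summits from 13 to 58 with a median of 26. Over all genes called in both, the medians were 17 and 26. The median fold of members called in both was 4.14 in the control and 4.34 in lactate, beside 3.83 and 3.98 for all genes. The lactate summit held more reads than the control summit at 104 members and fewer at 9, so 92.0% had more, beside 94.5% of all such genes. The median ratio of lactate to control reads was 1.5, beside 1.55 for all genes. Higher lactate reads at these genes were thus no more frequent or larger than over all genes. On the authors' fold, which divides the summit by the local background of its own library, 72 members (63.7%) were higher in lactate and 41 lower, beside 52.5% higher over all genes. The best peaks of both libraries overlapped at 110 of the 113 members (97.3%), beside 90.3%. The exceptions were Zfp512b, Zfp629 and Zfp978. Median peak widths were 354 bp in the control and 509 bp in lactate, beside 292 and 457 bp for all genes.

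Strong calls were also more frequent among the members than in the background. A −log10 q of at least 5 was reached by the best gene-end peak of 48 members in the control (22.2%), beside 8.53% of all genes, and of 96 in lactate (44.4%), beside 24.1%. At −log10 q of at least 10 the counts were 7 in the control (3.24%), beside 0.959%, and 31 in lactate (14.4%), beside 5.13%. With the threshold set in both lists, a −log10 q of at least 5 was reached in lactate alone by 52 members (24.1%), beside 16.5% of all genes, and a −log10 q of at least 10 by 26 (12%), beside 4.45%. These include members whose control peak fell below the threshold. In control alone the counts were 4 (1.85%), beside 0.932%, and 2 (0.926%), beside 0.283%. In lactate the Zfp genes numbered below 500 and the Zkscan and Zscan genes were similar to the members. Their lactate shares were 44.1% and 44.4% at −log10 q of at least 5, and 11.3% and 11.1% at 10. In lactate alone they were 26.6% and 18.5% at 5, and 10.7% and 11.1% at 10. In the control they were 18.1% and 25.9% at 5, and 0.565% and 0% at 10. The differences between the groups were not tested. The 7 members at −log10 q of at least 10 in the control were Zfp748, Zfp729a and Zfp738 on chromosome 13, Zfp942 and Zfp943 on chromosome 17, Zfp971 on chromosome 2 and Zfp932 on chromosome 5.

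The highest fold among members called in both libraries was that of Zfp619. At its promoter, shown above with 21 CG, the control summit held 19 reads (11.4 to 29.7, fold 5.05) and the lactate summit 28 (18.6 to 40.5, fold 6.97). The control peak lay at chr7:39517719-39517967 and the lactate peak at chr7:39517481-39518157, both over the start. Zfp729a had the most reads, 49 in the control (36.3 to 64.8, fold 5.76) and 58 in lactate (44.0 to 75, fold 5.59). Zfp748, also on chromosome 13, had 42 (30.3 to 56.8, fold 6.74) and 43 (31.1 to 57.9, fold 5.28). For both genes the read intervals of the libraries overlapped. Zfp932, a KRAB zinc finger protein known to repress endogenous retroviruses, had 27 reads in the control (17.8 to 39.3, fold 6.51) and 25 in lactate (16.2 to 36.9, fold 4.78). Zfp994, Zfp560, Zfp677 and Zfp660 had control summits of 13, 16, 17 and 18 reads and lactate summits of 26, 26, 29 and 24 reads, at lactate folds of 6.65, 6.65, 6.47 and 6.07. Lactate held more reads at each of these, with overlapping intervals. Zfp958 reached 27 reads in the control and 50 in lactate (37.1 to 65.9).

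The counting intervals of the libraries lay apart at 2 of the 113 members, Zfp654 and Zfp719, a share of 1.77% beside 2.31% of all genes called in both. Zfp654 (chr16:64780347-64851937) had 15 control reads (8.40 to 24.7) and 39 lactate reads (27.7 to 53.3) at the summit. The local background at the summit was 3.22 in the control and 5.94 in lactate, and the fold was 3.79 and 5.76. Zfp719 (chr7:43579559-43593710) had 14 reads (7.65 to 23.5) and 36 (25.2 to 49.8), over local backgrounds of 2.96 and 6.36. Both genes thus stood higher in lactate in reads, in background and in fold. The Zfp654 peak also met the end window of Cggbp1 in both libraries, so it cannot be given to Zfp654 alone. No member's intervals lay apart the other way. The 9 members with fewer reads in lactate were Zfp950, Zfp970, Zfp971, Zfp972, Zfp932, Zfp977 and, in the chromosome 4 cluster, Zfp978, Zfp982 and Zfp985. Zfp971 had 30 control reads (20.2 to 42.8) and 20 lactate reads (12.2 to 30.9) at 1 site, with overlapping intervals. For Zfp978 the best control peak, with 40 reads (28.6 to 54.5), and the best lactate peak, with 20 (12.2 to 30.9), were separate peaks near the same gene end.

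**Figure D3:**
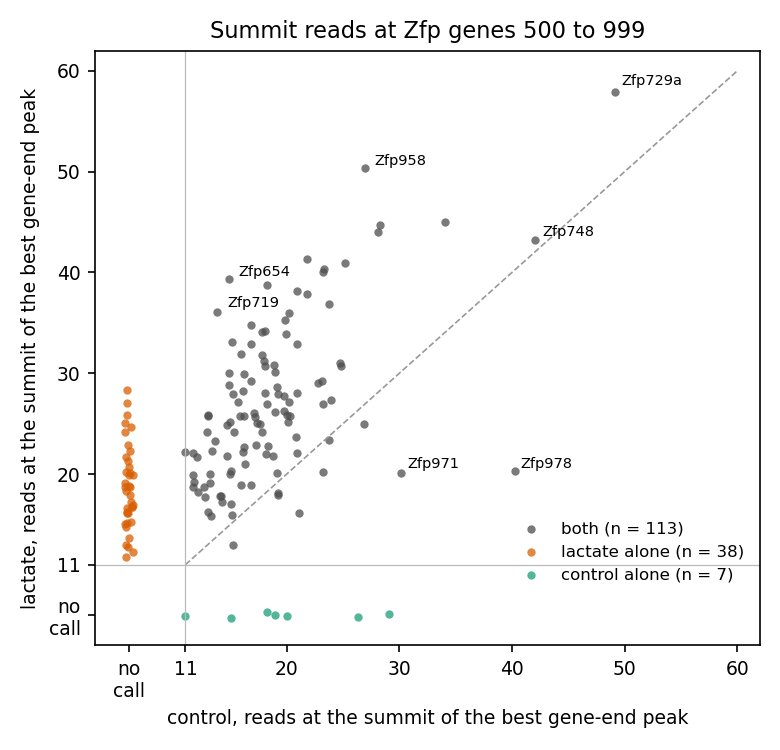
Summit reads of the best gene-end peak in the control (horizontal) and in lactate (vertical), 1 point per member, moved by up to 0.35 reads so that points do not cover each other. Points on the "no call" lines had no peak in that library, grey lines mark the lowest summit of 11 reads, and the dashed line marks equal reads. Of 113 members called in both libraries, 104 lie above the dashed line.

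Members called in lactate alone had modest peaks, close to those of all genes in this class. The 38 had 12 to 28 summit reads with a median of 18.5, and 10 of them reached a −log10 q of 5 and none a −log10 q of 10. Of all 3536 genes called in lactate alone, 930 and 50 did, and their median was 19 summit reads. At the lower threshold the members' share was thus close to that of all such genes. The highest fold was that of Zfp638, whose human counterpart NP220 is known to bring the HUSH silencing complex to unintegrated retroviral DNA. It had 22 lactate reads (13.8 to 33.3, fold 5.56) at its annotated start and no control call there. Zfp940, with the promoter printed above, had 21 reads (13.0 to 32.1, fold 5.42). Zfp879 followed with 19 reads at fold 4.93, and Zfp867 had the most reads of the class at 28 (18.6 to 40.5, fold 4.45). Zfp811, Zfp599, Zfp689, Zfp667, Zfp946 and Zfp607b completed the highest 10 with 17 to 26 reads. Since a control call needed at least 11 reads, and more where the background was higher, a lower control signal at these promoters was not detectable. In 7 of the 38 (18.4%) the control had a peak further inside the gene, beside 30.2% of all genes called in lactate alone.

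The 7 members called in control alone were Zfp992, Zfp996, Zfp787, Zfp628, Zfp648, Zfp991 and Zfp979, in order of fold from 3.55 to 2.35. Their summits held 11 to 29 reads, and none reached a −log10 q of 5, which 29 of the 730 such genes did. The median was 19 reads for these members, beside 14 over all genes called in control alone. With only 7 members, the shares at this threshold cannot be compared. Zfp991 had 29 control reads (19.4 to 41.6) over a local background of 10.5, and Zfp979 had 26 (17.0 to 38.1) over 10.5. These, with Zfp992, lay in the chromosome 4 cluster. Zfp628, near the threshold, had 11 reads (5.49 to 19.7). Lactate had a body peak in 4 of the 7 (57.1%), beside 28.4% of all genes called in control alone.

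Some members share a promoter, so their calls are not independent. Others have a near copy of it elsewhere, so that the reads counted to 1 may come from the other. Zfp942 and Zfp943 start 55 bp apart on opposite strands and share 1 peak with 25 control reads (16.2 to 36.9, fold 6.10) and 31 lactate reads (21.1 to 44.0, fold 4.95). Zfp944 and Zfp758, 1 bp apart on opposite strands, share a peak of 23 control reads at fold 6.06 and 29 lactate reads at fold 4.85. The Zfp942 promoter was 91.3% identical to that of Zfp944, and the Zfp943 promoter 97.3% identical to that of Zfp758, so the values of these 2 shared peaks are uncertain. Zfp784 and Zfp580, 72 bp apart on opposite strands, share 20 and 26 reads. Zfp668 and Zfp646, 77 bp apart, share 15 and 25 reads. All 4 pairs were called in both libraries. Counted once, the best gene-end peaks of the members were 116 in the control and 147 in lactate. The best peak also met the end window of a gene that is no member for 11 members in the control and 14 in lactate. It touched the member's own annotated gene for 110 of 120 and 146 of 151.

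The members were clustered along the chromosomes. With clusters defined as at least 3 members and no gap over 500 kb between neighbours, 20 clusters on 9 chromosomes held 125 members. Of these, 72 were called in both libraries, 20 in lactate alone, 5 in control alone and 28 in neither, which gave 61.6% called in the control and 73.6% in lactate. The 91 members outside clusters gave 47.3% and 64.8%. Chromosome 7 had 8 clusters, from 7A to 7H in order along it.

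The chromosome 17 clusters were called almost throughout. In the first, 17A (chr17:21383707-22867309, 14 members), 12 members were called in both libraries and 2 in lactate alone. Zfp677 and Zfp994 belong to it, with the pairs Zfp942 and Zfp943 and Zfp944 and Zfp758. In 17B (chr17:32765496-33307239, 9 members) 7 were called in both and 2 in lactate alone. Its highest fold was that of Zfp799, with 20 control reads (12.2 to 30.9, fold 5.31) and 25 lactate reads (16.2 to 36.9, fold 5.44). Zfp763 and Zfp955b had 12 reads each in the control and 19 and 20 in lactate, and the Zfp955b promoter was 100% identical to that of Zfp955a. No member of either chromosome 17 cluster was without a lactate peak.

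On chromosome 8 all 6 members of cluster 8A and all 4 of cluster 8B were called in both libraries. Zfp869 in 8A had 23 control reads (14.6 to 34.5) and 40 lactate reads (28.6 to 54.5), and Zfp866 had 18 and 39. Zfp961 in 8B had 23 and 40. The 4 members of 2B and the 3 of 7C were also all called in both. In 7H (chr7:127233061-127885996, 10 members) 7 were called in both, 2 in lactate alone and 1 in neither. At the other end, cluster 10 had no control call among its 3 members, and Zfp873 and Zfp938 had 16 and 15 reads in lactate alone. Cluster 7D had 1 call, Zfp526, with 19 lactate reads.

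The chromosome 4 cluster (chr4:145510759-147849126, 2.34 Mb) differed from the others in its peaks. It held many peaks but few of them at gene ends, and far more in the control than in lactate. Smaller control excesses were in 13B (87 control and 77 lactate peaks), 2B (17 and 16) and 8B (5 and 4). Of the 16 members in the chromosome 4 cluster 3 were called in both libraries, 1 in lactate alone (Zfp933, 19 reads), 3 in control alone and 9 in neither. The span carried 207 control peaks and 108 lactate peaks, or 88.5 and 46.2 per Mb, while chromosome 4 as a whole had 11.6 and 12.9 per Mb. The median local background under these peaks was 7.44 reads in the control and 4.87 in lactate. In the other clusters but 13B the control background was below the lactate background. Inside the gene bodies of its members there were 99 distinct control and 44 distinct lactate peaks, and 15 members had a body peak in the control against 9 in lactate. Zfp993, annotated over 478623 bp, had 37 control and 13 lactate body peaks, and Zfp978 had 27 and 17. The members called in both libraries were Zfp978, Zfp982 and Zfp985. Zfp982 had 23 control and 20 lactate reads, and Zfp985 had 19 and 18.

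Promoters in the chromosome 4 cluster were poor in CG, with a median of 4.5 per 300 bases over the 10 that could be read, and 5 of those 10 were at least 90% identical to another gene's promoter. Reads from such copies can be hard to place on 1 of them, so the values of these members are uncertain. The Zfp600 promoter printed above was 99.7% identical to that of Rex2, and that of Zfp979, called in control alone, was 96.7% identical to that of Zfp600. The part of such copies in the control background was not tested. Cluster 13B (chr13:66670274-67683512, 12 members) was the only other cluster with a control density near that of the chromosome 4 cluster, at 85.9 control and 76.0 lactate peaks per Mb over backgrounds of 5.74 and 5.42. There 7 members were called in both libraries and 5 in neither, and it includes Zfp729a, Zfp748 and Zfp738. Of those called in neither, Zfp708, Zfp759, Zfp595 and Zfp874b had a peak within 1 kb of another listed start, and Zfp640 had not. Zfp874b had a body peak of 27 control reads (17.8 to 39.3) and 49 lactate reads (36.3 to 64.8). Zfp738 had 34 control reads (23.5 to 47.5) and 45 lactate reads (32.8 to 60.2). Clusters on chromosomes 4 and 13 are known to hold KRAB zinc finger repressors of endogenous retroviruses.

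**Figure D4:**
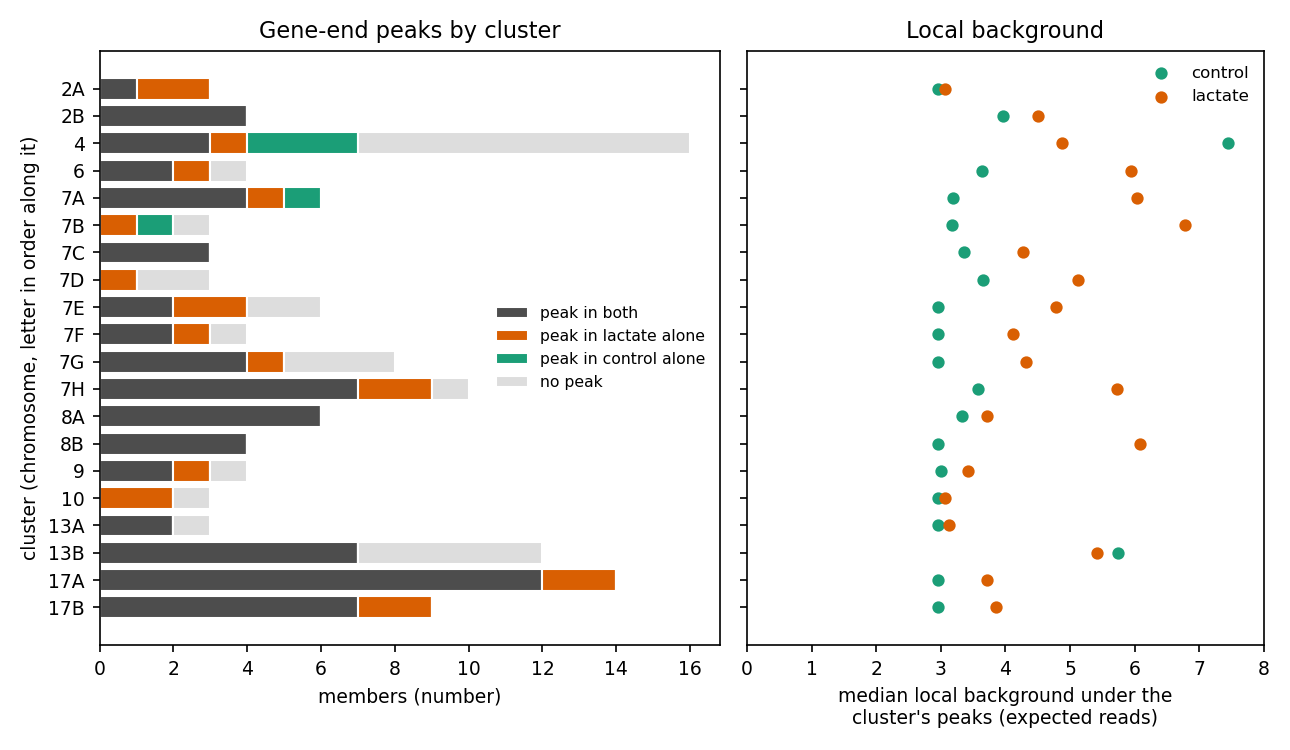
Left, number of members in each of the 20 clusters by the library that called a gene-end peak, named by chromosome with a letter in order along it. Right, median local background under all peaks of the cluster's span (expected reads) in control and lactate. The chromosome 4 cluster has 9 of 16 members without a gene-end peak and a control background of 7.44 against 4.87 in lactate, and in the other clusters but 13B the control point lies to the left.

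Peaks inside the gene bodies were about as frequent at the members as at other genes. Beyond the end windows, 68 members (31.5%) had a control peak, beside 28.7% of all genes, and 64 (29.6%) a lactate peak, beside 31.3%. Both libraries had one in 46 members, control alone in 22 and lactate alone in 18. In 44 of the 46 a body peak of each library overlapped. No shares over all genes are given for this split and this overlap, so neither is read as particular to the members. Without the chromosome 4 cluster the counts were 53 and 55 of 200 members. Body peaks did not gather at the far end of the genes, where the finger exon usually lies. The last 20% of the gene held 16 of 134 distinct control peaks with a strand (11.9%) and 8 of 98 lactate peaks (8.16%), beside 18.9% and 17.3% for all genes. Without the chromosome 4 cluster the counts were 7 of 66 (10.6%) and 8 of 73 (11%). The first 20% of the gene held 27.6% of control and 37.8% of lactate peaks with that cluster and 22.7% and 30.1% without it, beside 19.5% and 21.8% for all genes.

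Many of the body peaks of highest fold sat at other listed starts. Of the distinct body peaks, 14.9% in the control and 25.5% in lactate lay within 1 kb of a start of the promoter table, beside 7.17% and 10.8% for all genes. Without the chromosome 4 cluster the members' shares were 28.8% and 32.9%. Zfp638 had the highest fold in both libraries, with 29 control reads (19.4 to 41.6, fold 6.91) at chr6:83914287-83915049 and 50 lactate reads (37.1 to 65.9, fold 6.47) at chr6:83914039-83915039. Its listed start lies there, so the lactate-alone call at its annotated end stands beside a strong peak of both libraries inside the gene. Zfp708 on chromosome 13 had 22 control reads (13.8 to 33.3) and 30 lactate reads (20.2 to 42.8) at an inner start. Zfp583, Zfp595, Zfp759 and Zfp558 had 22, 22, 19 and 16 control reads and 26, 18, 25 and 21 lactate reads in the same position. Zfp934 had a body peak of 18 control and 24 lactate reads. Of the 58 members with no gene-end peak, 35 had a body peak, and 13 of them had one within 1 kb of a listed start. Members with no gene-end peak were 26.9% of the members, beside 51.9% of all genes. Those with no peak of any kind were 10.6%, beside 37.6%. No share over all genes is given for the 13. For those 13 the class of no gene-end call follows from which end the gene table gives.

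Some long members outside the clusters had several body peaks. Zfp704 on chromosome 3 had 11 control and 14 lactate body peaks. Zfp516, a regulator of brown fat genes, had 7 and 6, with a best control summit of 34 reads (23.5 to 47.5, fold 5.89). No peak of any kind, at an end or in the body, was found at 23 members (10.6%), beside 37.6% of all genes. The longest of these were Zfp521, a regulator of neural and blood progenitors, over 285737 bp, and Zfp618, over 174155 bp. They were followed by Zfp697, Zfp957, Zfp976, Zfp541, Zfp711, Zfp781, Zfp616 and Zfp735, all under 50 kb long. Zfp618 is without a peak although its promoter holds 59 CG.

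CG content differed less between the classes of members than between the same classes of all genes. The 157 promoters had a median of 11 CG in 300 bases, beside 14 over 15752 promoters. Members called in both libraries had a median of 11, in lactate alone 12 and in neither 9.5, whereas over all genes the medians were 22, 21 and 4. The 4 members called in control alone with a promoter had a median of 14.5, beside 5 over all genes. Split by CG count, the members' share with a gene-end peak exceeded that of all genes most where CG were few. With 0 to 4 CG, 7 of 15 members were called in the control (46.7%), beside 9.58% of all genes, and 6 in lactate (40%), beside 7.76%. Among these 15 were all 4 members of cluster 2B, with 3 to 4 CG, each called in both libraries. The promoters of 3 of the 4 were at least 90% identical to that of another gene, so their values are uncertain. With 5 to 9 CG, 32 of 50 were called in the control (64%), beside 23.1%, and 42 in lactate (84.0%), beside 30.8%. With 10 to 19 CG, 31 of 49 were called in the control (63.3%), beside 43.0%, and 41 in lactate (83.7%), beside 63.7%. With 20 or more CG, 27 of 43 were called in the control (62.8%), beside 53.7%, and 34 in lactate (79.1%), beside 76.2%. In this last group the lactate shares of members and of all genes lay close together. High shares at few CG were not particular to the members. Of the Zfp genes numbered below 500, 66.7% of 27 with 5 to 9 CG were called in the control and 92.6% in lactate. With 0 to 4 CG, 37.5% and 62.5% of 8 were called. Their median CG was 15 when called in both libraries, 14 in lactate alone and 15 in neither. Of the Zkscan and Zscan genes, each library called 3 of 3 with 5 to 9 CG and 0 of 5 with 0 to 4. The Zfp729a promoter, with 5 CG and the tallest peak of all members, is an example with few CG.

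**Figure D5:**
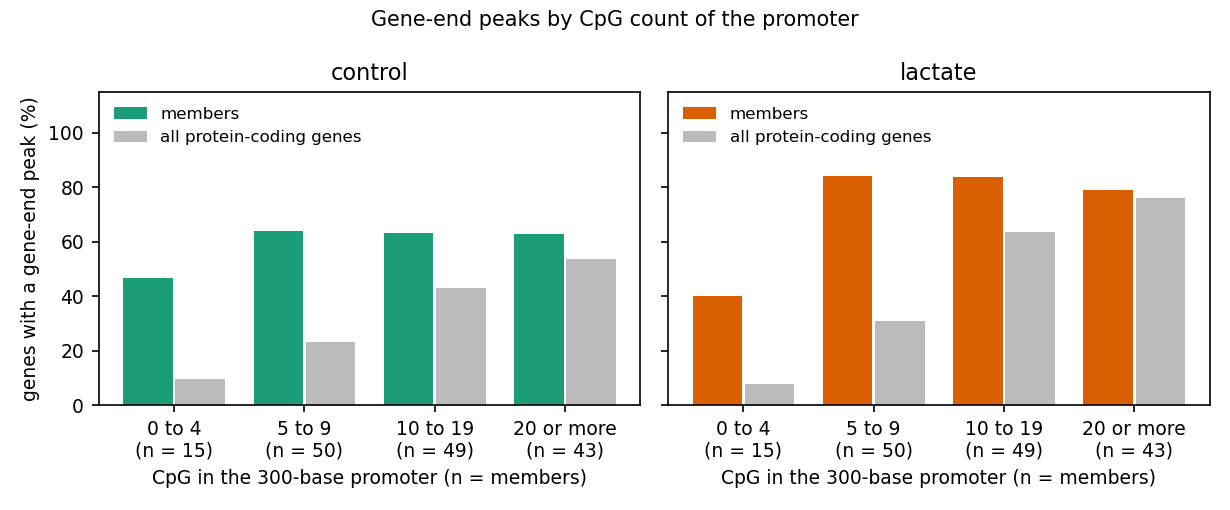
Share of genes (%) with a gene-end peak in the control (left) and in lactate (right), by the number of CpG in the 300-base promoter, for the members (coloured, n under each pair) and all protein-coding genes (grey). With 5 to 9 CpG the members stand at 64% and 84.0% and all genes at 23.1% and 30.8%, and with 20 or more CpG in lactate the shares are 79.1% and 76.2%.

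A search of the same 157 promoters on both strands for 5 short motifs gave a further description. CCAAT, the core read by NF-Y, was in 86 promoters (54.8%), beside 39.4% of all promoters of that length. TATAAA, the motif read by TBP, was in 4 (2.55%), beside 13.7%. GGGCGG, the GC box read by Sp1 family proteins, was in 71 (45.2%), beside 46.7%. CACGTG, an E-box, was in 17 (10.8%), beside 8.01%. AAGATGGC, the core read by Yy1, was in 7 (4.46%), beside 3.28%. The GC box and the E-box contain a CG and overlap with the CG count. A promoter at least 90% identical to that of another gene was found for 25 of the 157 members, 22 of them in clusters. Members without a promoter sequence were not checked. The 22 were 3 of 3 in cluster 2A, 3 of 4 in 2B (among them Zfp971 and Zfp970), 5 in 17A and 5 in the chromosome 4 cluster. A further 2 were in 17B, and 1 each in clusters 7G, 10, 13A and 13B. The values of all 25 are uncertain in the same way. Of these 25, 15 were called in both libraries, 3 in lactate alone, 1 in control alone and 6 in neither.

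Genes of the machinery that KRAB zinc finger proteins work with were also read. Of 18 co-repressor and heterochromatin genes, 11 (61.1%) had a gene-end peak in both libraries, 5 (27.8%) in lactate alone and 2 (11.1%), Dnmt1 and Chd3, in neither. Over all genes these shares were 28.6%, 16.2% and 51.9%. Trim28, the scaffold that KRAB domains bind, had 14 control reads (7.65 to 23.5) and 21 lactate reads (13.0 to 32.1). Setdb1, the H3K9 methyltransferase it recruits, had 14 (7.65 to 23.5) and 16 (9.15 to 26.0). The intervals overlapped at both genes. Called in lactate alone were Morc3 with 32 reads (21.9 to 45.2), Atf7ip, a Setdb1 partner, with 19, Chd4, a remodeller of the NuRD complex, with 18, and Atrx and the H3K9 methyltransferase Suv39h1, both X-linked, with 17 each. Of these, Atf7ip had 2 control body peaks and Chd4 had 1, while Morc3, Atrx and Suv39h1 had none. Dnmt1 had 2 control and 3 lactate body peaks, and Chd3 had 1 in lactate.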

How the data were processed

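H4K12la was profiled by CUT&Tag in 1 control and 1 lactate library of Neuro2a cells, grouped by the treatment in the labels. Per the submitters' processing notes, BWA, MACS2 and deepTools were used with the genome build mm10. Not given in the sources used here were settings, versions and any input or spike-in library. Per library the authors deposited 1 MACS2 peak list, with a fold (summit over local background), −log10 p, −log10 q and score per peak, which are the authors' own values. The deposited score was not used, and −log10 q only ranked and filtered peaks. Reads at each summit were solved from the deposited fold and −log10 p, to within 0.001, for 46591 of 46592 control and all 39768 lactate peaks. The solution was also tested on simulated data.

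Gene ends came from RefSeq GRCm38.p6, and strand and promoters (183 of 216 members) from the RefSeq promoter table of the same build. Shares have exact Clopper-Pearson and reads exact Poisson 95% intervals. No test between libraries was possible. PCR copies are not independent molecules, so intervals cover counting error only. Members and gene lists were chosen with earlier results of these data known. Named genes are the highest folds per class (up to 10), per cluster (up to 3) and among body peaks (5 per library), the most peaks (5), the longest without a peak (10) and the co-repressor list; any further member is named for a count or after its values were seen. Finger counts and KRAB patterns were not computed here. Python 3.11.15, pandas 2.3.3, scipy 1.17.1 and Biopython 1.88 were used. Alternatives were stricter q, equal list lengths, other windows, summit placement, start side only, leaving out shared peaks and other cluster gaps.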

Additional observations from a re-analysis of the deposited data

How the results depend on the processing

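Counts moved by over 1.5 times mainly with the q threshold. With peaks of −log10 q 5 or more, members with a gene-end peak numbered 48 in the control, 96 in lactate, 44 in both libraries and 4 in control alone, and body peaks were in 22 members in the control and 24 in lactate. With −log10 q 10 or more these counts were 7, 31, 5 and 2, and lactate-alone members numbered 52 and 26 at these thresholds, against 38 as reported. At the stricter of them 4 members had a body peak in each library. Control-alone calls were 4 on the start side only and 4 without the chromosome 4 cluster, an alternative chosen after seeing the data. The other 51 recomputed values stayed within 1.5 times of the reported ones. On fold in place of reads, 72 in place of 104 of the 113 shared members stood higher in lactate. No paired analysis was possible because each treatment has 1 library. A peak needed 11 reads or more at its summit, so weaker signal was not detectable, and library and treatment cannot be told apart. Near-identical promoter copies limit the values of at least 25 members, 5 of them in the chromosome 4 cluster. Copies were looked for only at the 157 members with a promoter sequence, which in that cluster were 10 of 16.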
